A study of Mus musculus with 9 samples.

Results

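The genes described here are 10 markers of the principal neurons of the mouse hippocampus. Prox1, Neurod1, Dsp, C1ql2, C1ql3 and Tdo2 mark granule cells of the dentate gyrus, and Wfs1, Crym, Neurod6 and Fibcd1 mark pyramidal cells of the CA fields. All probes annotated to these symbols were taken, with no filter on missing values. This gave 13 probes, 9 for the 6 dentate genes and 4 for the 4 CA genes, of 29922 probes and 16637 named genes on the array. The probe IDs are those of the platform, and their sequences were not used here.

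Messenger RNA was compared on 9 arrays with 2 colours, each with RNA of a single hippocampus per channel. All 8 mice were female. There were 2 mice in each group: 3xTG aged 3 months, 3xTG aged 12 months, wild type (WT) aged 12 months, and WT aged 3 months. 3xTG mice are labelled B6;129Psen1tm1Mpm Tg (APPSwe,tauP201L) 1Lfa. They carry a mutant presenilin 1 gene in place of the mouse one and human mutant APP and tau transgenes, which in this line are driven by Thy1 regulatory sequence, active in neurons. WT mice are labelled 129SV with C57BL6. There were 3 comparisons with 3 arrays each: WT at 12 over WT at 3 months, 3xTG over WT at 3 months, and 3xTG over WT at 12 months. WT mice of 3 months were on 6 arrays, as were those of 12 months, and each 3xTG group was on 3.

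Information enters the hippocampus largely through the granule cells, whose axons, the mossy fibres, run to pyramidal cells of CA3, and these project to CA1. Granule cells are among the few neurons of the adult rodent brain that are still being born. The 2 cell classes keep distinct sets of transcription factors and synaptic proteins, so their markers are often read together as a measure of the balance between the fields in a dissected hippocampus. In bulk RNA, fewer cells of a class and less RNA per cell cannot be told apart. A ratio array gives no level, so the labelled tissue could not be checked against levels of its markers.

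The 3 upstream sequences are shown because their genes lay on one side of 0 on all 3 arrays of WT ageing: Neurod1 and Tdo2 above it and Fibcd1 below it. They are the 250 bases before the RefSeq start in GRCm38.p6, all on the minus strand, at chr2:79456637-79456886 for Neurod1, chr3:81975729-81975978 for Tdo2 and chr2:31846006-31846255 for Fibcd1. Capitals mark CANNTG, the E-box bound by basic helix-loop-helix factors such as Neurod1 and Neurod6.
Neurod1: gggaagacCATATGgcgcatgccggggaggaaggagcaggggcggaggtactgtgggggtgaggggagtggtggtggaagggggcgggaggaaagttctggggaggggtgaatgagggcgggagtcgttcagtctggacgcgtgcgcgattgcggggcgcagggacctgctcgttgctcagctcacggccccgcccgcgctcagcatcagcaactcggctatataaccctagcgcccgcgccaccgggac
Tdo2: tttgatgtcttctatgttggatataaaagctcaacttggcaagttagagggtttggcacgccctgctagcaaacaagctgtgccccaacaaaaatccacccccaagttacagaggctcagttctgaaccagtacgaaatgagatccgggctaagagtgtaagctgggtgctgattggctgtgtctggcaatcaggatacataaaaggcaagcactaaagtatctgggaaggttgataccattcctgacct
Fibcd1: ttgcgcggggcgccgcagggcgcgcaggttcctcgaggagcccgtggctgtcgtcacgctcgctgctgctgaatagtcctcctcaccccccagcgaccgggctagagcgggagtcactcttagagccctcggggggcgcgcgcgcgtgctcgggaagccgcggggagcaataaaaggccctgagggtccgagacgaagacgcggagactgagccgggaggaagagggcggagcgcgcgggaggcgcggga
CANNTG, which reads alike on both strands as a pattern, occurred 1 time in the Neurod1 window and 0 times in those of Tdo2 and Fibcd1. Of 32851 RefSeq windows of the same length, 66.2% held it. RefSeq windows matched 9 of the 10 genes, Crym having no entry, and 6 of their 10 windows held the pattern. The narrower CAGATG, searched on both strands and contained in CANNTG, was in 14.4% of all windows and in those of Wfs1 and of 1 of the 2 Prox1 starts. A match or its absence describes these letters only.

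Each value below is a log2 ratio of the first-named to the second-named mice, relative to the median of all probes listed on that array, so 0 is the array median. The deposited table omits every ratio between -0.5 and 0.5, and between 45.7 and 54.1% of probes were listed per array. Of 117 possible values of the 13 probes, 60 were listed, or 51.3%, against 48.6% over all probes. An unlisted value can be a small ratio or a spot left out for another reason. Array medians before centring ran from 1.42 to 2.34 in WT ageing, from -0.84 to 0.97 in 3xTG over WT at 3 months and from -1.71 to -0.87 at 12 months. The sign of single values can therefore turn with centring. Ratios were read as test over reference from the labels. Arrays of opposite dye orientation in the same comparison correlated at 0.197 to 0.308 across probes, and the overall direction, which rests on the labels, was taken as likely. Nothing in the sources used here says whether the 2 mice of a group were littermates.

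limma called 0% of the probes in each comparison at an adjusted p of 0.05, with 11183, 10336 and 10983 probes tested. Of the 10 genes, 7 were tested in WT ageing, 7 in the genotype comparison at 3 months and 5 in that at 12 months, and none passed. Prox1 and C1ql2 had too few values to be tested in any comparison. The unadjusted p was under 0.05 for 808 probes in WT ageing, for 836 in the genotype comparison at 3 months and for 982 in that at 12 months. Nothing below is therefore a called change, and the text describes values and their spread. Mice recurred on several arrays and the 3 arrays of a comparison held only 2 mice per group, so arrays are not separate animals.

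Among the dentate transcription factors, Prox1, a homeobox factor that granule cells need to keep their identity, was listed on 3 arrays and below 0 on each. Its values were -2.47 and -0.41 on arrays 1 and 2 of 3xTG over WT at 3 months, and -0.42 on array 3 at 12 months. WT ageing listed no Prox1 value. Before centring all 3 were below 0 as well, from -2.14 to -1.24. Both 3-month arrays had the test RNA in the same dye, so Prox1 could not be separated from a dye effect and was not tested.

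Neurod1, a basic helix-loop-helix factor of granule cell differentiation, had 2 probes. The first, mMC016418, was at 4.04, 1.49 and 1.26 in WT at 12 over WT at 3 months. All 3 arrays lay above 0, and array 1 was the highest. The fitted log2 ratio was 2.67 ± 0.92 (SE, n = 3 arrays, limma adjusted p = 0.628, unadjusted p = 0.0202). It was 1.69 without array 1 and 4.47 without centring. The same probe was at 1.62 and 1.67 in 3xTG over WT at 3 months on the 2 arrays that listed it. At 12 months it was at -0.60, -0.35 and 0.096, close to the array median on all 3. The fit gave -0.075 ± 0.92 (SE, limma adjusted p = 0.99) there, and -1.79 with arrays centred on abundant transcripts. Before centring, the 12-month arrays were all below 0, from -1.61 to -1.22. The fitted genotype effect at 12 minus that at 3 months was -2.27 ± 1.54 (SE, limma adjusted p = 0.99), so a difference between ages was not shown.

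The second Neurod1 probe, mMR027847, was listed on 4 arrays. In WT ageing it was at 0.72 and 3.30, on the same side as the first probe. It was at -2.36 on the only 3-month array of 3xTG over WT that listed it, and at 2.25 on the only 12-month one. On both of those arrays the first probe had the opposite sign, so the 2 probes disagreed in the genotype comparisons.

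Dsp, desmoplakin, which anchors intermediate filaments at desmosomes, was spread about 0 in WT ageing, where probe mMC009911 gave 0.99 and -0.56. For 3xTG over WT it gave 2.94 and -0.40 at 3 months, and at 12 months 2.09 and 2.56. After centring only the 12-month pair lay on one side. The 3-month pair was of the same 3xTG mouse. Before centring this probe was above 0 on all 6 arrays that listed it, from 0.56 to 2.40. A second Dsp probe, mMC011414, was at -0.54 on array 3 of WT ageing and at -1.47 on array 1 at 12 months. At 12 months it was opposite in sign to the first probe, but no array listed both. Its WT ageing value was 1.41 before centring.

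C1ql2 and C1ql3 encode secreted C1q-like proteins that organise mossy fibre synapses. C1ql2 was listed on a single array, at -2.34 in WT ageing. C1ql3 probe mMC008903 was at -1.04 and 0.75 in WT ageing, or 1.29 and 2.71 before centring, and at 5.32 on the only 3-month array of 3xTG over WT that listed it. At 12 months it was at 2.30, 3.59 and 3.13. The 12-month arrays were close together and above 0, before centring too, and the fit gave 3.0 ± 1.25 (SE, n = 3 arrays, limma adjusted p = 0.551), or 1.33 with arrays centred on abundant transcripts. Another C1ql3 probe, mMC005035, was listed only on array 3 at 12 months, at -7.12, against 3.13 for the first probe on that same array. The 2 probes of C1ql3 thus disagreed in sign by a wide margin. C1ql3 is also made by neurons outside the dentate gyrus.

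Tdo2, tryptophan dioxygenase, which opens the kynurenine route of tryptophan breakdown, was at 1.99, 0.48 and 0.034 in WT ageing. All 3 were above 0, but 1 of them barely so, and the fit gave 1.04 ± 1.19 (SE, limma adjusted p = 0.961). It was -1.07 without array 1 and 2.93 without centring. Its 3 listed values in 3xTG over WT were all below 0: -0.26 and -2.91 at 3 months and -2.56 at 12 months. Before centring they ran from -3.43 to -1.09. Both 3-month values were of the same 3xTG mouse.

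Of the CA genes, Crym, a cytosolic thyroid hormone-binding protein, was the most often listed, on 8 arrays. It was at -0.84, -1.34 and -0.93 in WT at 12 over WT at 3 months. These arrays lay close together relative to the array median, but before centring they were at 0.58 to 1.03, so the sign depended on centring. The fit gave -1.05 ± 0.90 (SE, limma adjusted p = 0.914), or 0.82 without centring. Crym in 3xTG over WT was at 1.63, 2.63 and 1.45 at 3 months and at 2.41 and 2.39 at 12 months. Both 12-month values were of the same 3xTG mouse, with its RNA in the same dye. All 5 arrays were above 0 before centring as well, from 1.52 to 2.47. The 3-month fit gave 1.70 ± 0.90 (SE, n = 3 arrays, limma adjusted p = 0.65), or 1.13 with arrays centred on abundant transcripts, and the 12-month fit 2.23 ± 1.12 (SE, 2 arrays, limma adjusted p = 0.566). Their difference, 12 minus 3 months, was 0.53 ± 1.41 (SE, limma adjusted p = 0.993).

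Wfs1, wolframin, a membrane protein of the endoplasmic reticulum enriched in CA1, had centred values on both sides of 0 in WT ageing and above it in the genotype comparisons. It was at 0.81 and -0.79 in WT ageing, at 1.09 and 4.85 in 3xTG over WT at 3 months, and at 3.42 on 1 array at 12 months. Before centring both WT ageing values were above 0, at 2.22 and 1.17. Neurod6, a basic helix-loop-helix factor of pyramidal neurons, was at -0.049 on 1 array of WT ageing. It was at -0.14 and 2.13 in 3xTG over WT at 3 months and at 2.21 and 1.16 at 12 months. Before centring Neurod6 was at 2.29 in WT ageing, at 0.70 and 3.10 at 3 months and at 1.33 and -0.55 at 12 months, so 3 of its 5 signs turned. For Wfs1 the 2 genotype arrays at 3 months differed by more than 3 log2 units, and its fitted value was 2.97 ± 1.17 (SE, 2 arrays, limma adjusted p = 0.618).

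Fibcd1, a membrane receptor for acetylated ligands enriched in CA1, stood apart from the other CA genes. In WT ageing it was at -4.41, -4.25 and -4.10, an SD of 0.15 over the 3 arrays. Every array was far below 0, and before centring too, from -3.0 to -1.92. The fit gave -4.37 ± 1.03 (SE, n = 3 arrays, limma adjusted p = 0.628, unadjusted p = 0.00574), or -2.46 without centring. At 3 months it was at -0.43 and -2.42 in 3xTG over WT, the side opposite to Crym and Wfs1, and no 12-month array listed it. Since the 3-month WT mice are the reference in both comparisons, these values are not separate. Both genotype values of Fibcd1 were of the same 3xTG mouse.

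**Figure D1:**
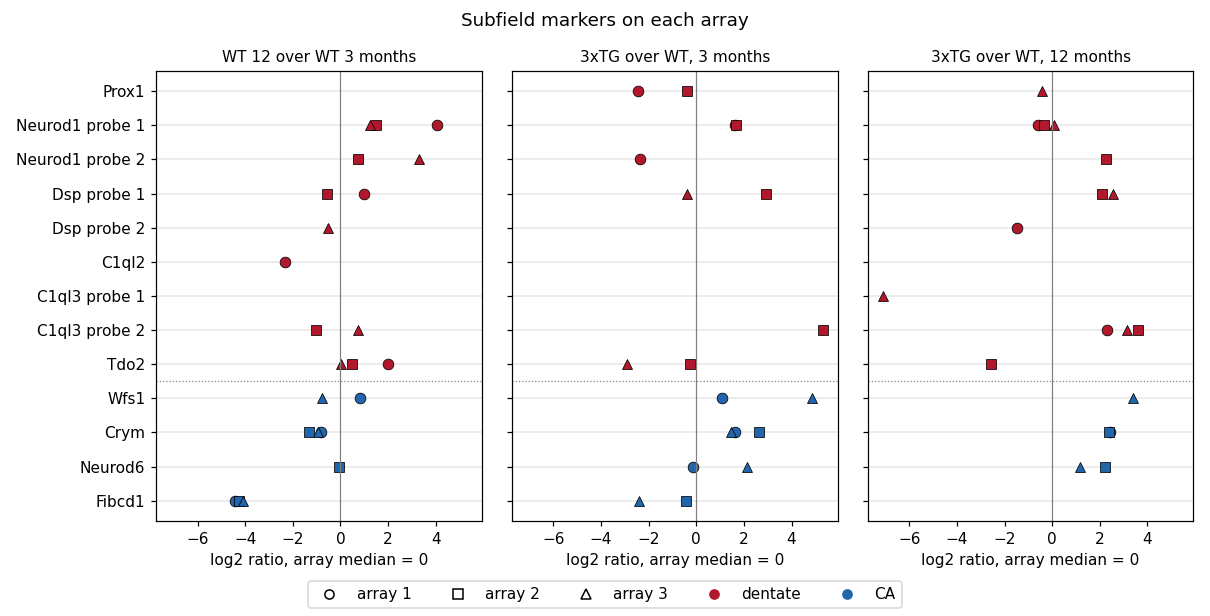
Log2 ratio of every listed probe of the 10 genes, relative to the array median (x axis), in the 3 comparisons. Each point is 1 array, its shape the replicate number, and colour separates dentate from CA genes. Fibcd1 sits between -4.41 and -4.10 in WT ageing and Crym between 1.45 and 2.63 in 3xTG over WT, while the probes of Neurod1, Dsp and C1ql3 spread on both sides of 0.

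Across comparisons, listed CA values were above 0 in 1 of 9 cases in WT ageing, in 6 of 9 in 3xTG over WT at 3 months and in 5 of 5 at 12 months. Before centring the counts were 6 of 9, 7 of 9 and 4 of 5. The dentate values were above 0 in 10 of 14 cases in WT ageing, in 4 of 10 at 3 months and in 7 of 13 at 12 months. Before centring these counts were 13 of 14, 5 of 10 and 6 of 13. Taken per gene, 2 of 5 dentate genes, Neurod1 and Tdo2, were above 0 in WT ageing, with a median of -0.037. At 3 months 3 of 5 were above 0, with a median of 0.65, and at 12 months 3 of 5, with a median of 0.15. The CA genes had 1 of 4, 3 of 4 and 3 of 3 above 0, with medians of -0.54, 1.45 and 2.40. Over all genes 48.9, 49.2 and 55.3% were above 0, and the medians before centring were 1.88, 0.31 and -0.95. Values of the same gene and of shared mice are not independent.

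Of the 4 member probes listed on all 3 arrays of WT ageing, 2 were above 0 throughout (Neurod1 and Tdo2), where 16.4% of all probes listed on all 3 were. The other 2, Crym and Fibcd1, were below 0 throughout, where 22.2% of probes were. The only such probe of the genotype comparison at 3 months, Crym, was above 0, as were 30.9% of probes, with 20.8% below. At 12 months C1ql3 was above 0 throughout and Neurod1 was on neither side, against 29.7% of probes above and 20.3% below. With so few probes these counts do not set the genes apart. At an unadjusted p under 0.05, 2 of 7 member probes tested passed in WT ageing: Neurod1 above 0, as 1.31% of all probes did, and Fibcd1 below 0, as 5.92% did. For 3xTG over WT 0 of 7 passed at 3 months, where 4.86% of probes passed above and 3.23% below 0. At 12 months 0 of 5 passed, against 7.47% above and 1.48% below 0. For the age difference of the genotype effect 4 member probes were tested and 0 passed unadjusted, against 248 of 6807 probes, 2.53% above and 1.12% below 0, with 0% called after adjustment.

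The gap between the classes was taken on each array as the median of the listed dentate genes minus that of the listed CA genes, a quantity that centring cannot change. In WT at 12 over WT at 3 months the gap was 2.32, 1.30 and 1.32, a mean of 1.65 ± 0.58 (SD, n = 3 arrays). The dentate median lay above the CA median on all 3 arrays, though single genes of the 2 classes overlapped. On array 1 C1ql2 was at -2.34 and Wfs1 at 0.81. For 3xTG over WT at 3 months the gap was -2.51, 0.57 and -3.45, a mean of -1.79 ± 2.10 (SD), with array 2 on the other side from the rest. The mean was smaller than the spread between arrays. At 12 months the gap was -3.01, -0.78 and -2.45, a mean of -2.08 ± 1.16 (SD). The CA median was above the dentate median on all 3 arrays, but on array 2 C1ql3, at 3.59, was above both listed CA genes. No test was made on the gap, because the members were chosen with earlier results of these data known.

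Each median rests on few genes. WT ageing arrays listed 4 dentate and 3 CA genes each, and the genotype arrays between 2 and 5 dentate and between 1 and 4 CA genes. On array 1 at 12 months Crym was the only CA gene. On array 3 at 12 months C1ql3 entered as the mean of its 2 probes, which were at 3.13 and -7.12. Counting each probe separately gave a mean gap of -1.80 at 12 months, and the gap without probe mMC005035 was not taken. Setting unlisted values to a ratio of 0 took the mean gap to 0.37 in WT ageing, to -1.29 at 3 months and to -0.34 at 12 months. Reading the ratios as Cy5 over Cy3 gave -0.10, -0.50 and 0.44. That reading turns the sign of the arrays with test RNA in Cy3 only. As labelled, arrays of opposite dye orientation in the same comparison correlated at 0.197 to 0.308. Turning either array of such a pair would put that correlation below 0. WT ageing and the 12-month comparison share their 12-month WT mice, as test in the first and as reference in the second, so their gaps are not separate results. The 3-month comparison shares only its reference with WT ageing, and the 2 genotype comparisons share no mouse. Slide numbers 57 to 66 held all WT ageing arrays and array 1 of each genotype comparison. Those 2 genotype arrays had gaps of -2.51 and -3.01, and the remaining slides had 0.57 and -3.45 at 3 months and -0.78 and -2.45 at 12 months.

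Averaged over arrays, abundant transcripts lay on the same side as the CA genes in every comparison. The median over probes of ribosomal proteins, proteasome, respiratory chain and glycolysis averaged -0.65 ± 0.30 (SD) in WT ageing, 0.75 ± 0.89 in 3xTG over WT at 3 months and 1.78 ± 0.50 at 12 months. The CA median averaged -1.03, 1.33 and 2.33 in the same comparisons. Against the abundant transcripts, the CA genes were at -0.41, -0.81 and 0.064 in WT ageing, at 1.24, -0.51 and 1.02 at 3 months, and at 0.36, 0.21 and 1.08 at 12 months. The dentate genes on that scale were at 1.92, 0.50 and 1.38 in WT ageing, at -1.26, 0.057 and -2.43 at 3 months, and at -2.65, -0.56 and -1.37 at 12 months. On this scale the dentate genes lay farther from 0 than the CA genes on average in every comparison, whereas relative to the array median it was the CA genes. Which class the gap came from thus depended on the centring. The part of the abundant transcripts in the gap was not tested.

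**Figure D2:**
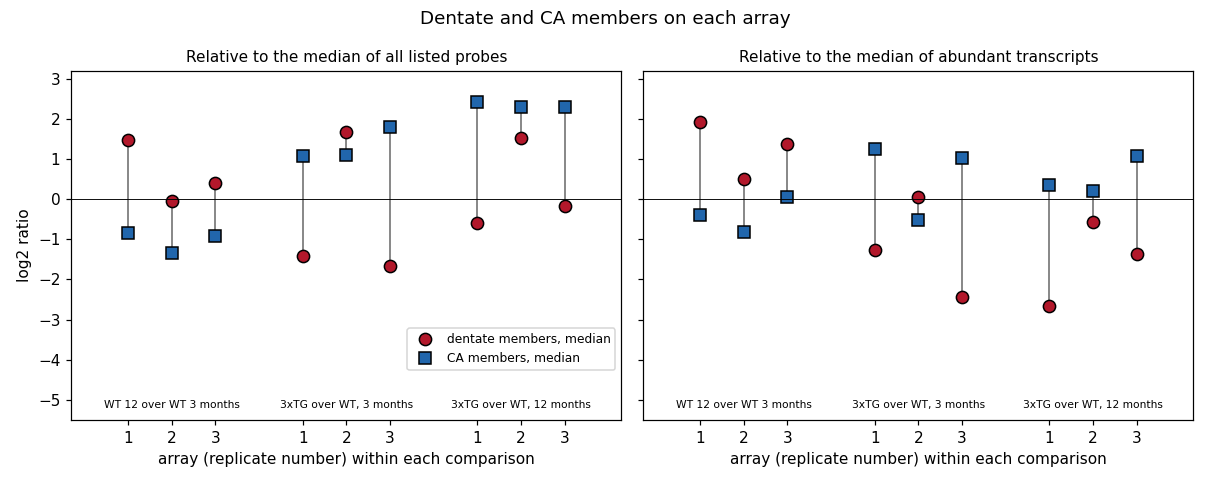
Median log2 ratio of the listed dentate genes and of the listed CA genes on each of the 9 arrays, relative to the median of all listed probes (left) and of abundant transcripts (right); grey lines join the 2 medians of an array. The line is equally long in both panels. The dentate median is the upper point on the 3 arrays of WT ageing and on array 2 of 3xTG over WT at 3 months, and the lower point on the other 5.

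Other genes of these cells were 13 further dentate granule cell genes on the array, Plk5 and Sema3e among them, and 16 of CA1, CA2 and CA3. The difference between their gap and that of the members was not tested. Their gap was -0.82, 1.05 and 0.61 in WT ageing, with a mean of 0.28 ± 0.98 (SD, n = 3 arrays). It was -1.78, -1.06 and 0.57 in 3xTG over WT at 3 months, with a mean of -0.76 ± 1.21 (SD). Both means were smaller than the spread. At 12 months the gap was -3.95, -1.50 and -0.53, with a mean of -2.0 ± 1.76 (SD), below 0 on all 3 arrays as for the members. These arrays and mice are the same, so this is a second set of genes and not a replicate.

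Within these lists limma called 0 genes; of the other dentate probes, 1 of 10 tested in WT ageing, 0 of 8 at 3 months and 0 of 6 at 12 months had an unadjusted p under 0.05. The one in WT ageing was below 0, as were 5.92% of all probes. Of the other CA1 probes 0 of 1 passed unadjusted in WT ageing, 1 of 1 below 0 at 3 months, against 3.23% of all probes, and 0 of 1 at 12 months. Of the CA3 probes 0 of 2 passed in WT ageing, 0 of 2 at 3 months and 1 of 2 above 0 at 12 months, against 7.47% of all probes. The CA2 list had 0 such probes of 5, 2 and 5 tested. Of 13 other dentate genes, 5 were above 0 in WT ageing, 7 in 3xTG over WT at 3 months and 6 at 12 months, with medians of -0.16, 0.035 and -0.47. Over all genes the medians were -0.044, -0.031 and 0.22, with 48.9, 49.2 and 55.3% above 0. Plk5, a polo-like kinase, was at -1.93, -3.38 and -2.82 in WT ageing, the side opposite to Neurod1 and Tdo2 (limma adjusted p = 0.685). Sema3e, an axon guidance ligand, was at 1.56, 3.04 and 2.63 in 3xTG over WT at 3 months (limma adjusted p = 0.65). So granule cell genes did not lie on one side in either comparison.

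Genes of CA2 had a median of -0.75 in WT ageing, with 2 of 7 above 0. Their median in 3xTG over WT was 1.30 at 3 months, with 4 of 6 above 0, and 1.47 at 12 months, with 5 of 6 above 0. Taken per gene, these medians had the signs of the CA members in all 3 comparisons. By array the CA2 list median in WT ageing was -1.18, 0.23 and -0.85, so array 2 lay on the other side. Genes of CA3 did not have those signs in all 3 comparisons: their medians per gene were 0.16, 1.75 and -0.55. Among them Bok, an apoptosis regulator of the Bcl2 family, was at 3.77, 3.54 and 3.40 at 12 months (limma adjusted p = 0.551), while 3 of the 5 CA3 genes were below 0 there. Of other CA1 genes, Pou3f1, a POU-domain factor, was at -3.85, -2.65 and -4.44 in 3xTG over WT at 3 months (limma adjusted p = 0.607), opposite to Crym and Wfs1. The 4 CA1 genes listed at 12 months were all above 0 when averaged over arrays, with a median of 1.62, though the list median on array 3 was -1.36.

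Immature granule neurons and their progenitors had 2 of 9 genes above 0 in 3xTG over WT at 3 months, with a median of -0.58, and 5 of 9 at 12 months, with a median of 0.21. In WT ageing 3 of 8 were above 0, with a median of -0.27. Dcx, doublecortin, a microtubule protein of newborn neurons, was at -4.17, -1.25 and -2.38 at 3 months, below 0 on each array (limma adjusted p = 0.626). Neurod2, a relative of Neurod1 and Neurod6 that mature neurons also make, was at -3.25, -6.40 and -3.71 in WT ageing (limma adjusted p = 0.628), the side opposite to Neurod1. Mossy cells of the hilus had 2 of 3 genes above 0 in WT ageing, with a median of 1.28. In the genotype comparisons they had 0 of 4 above 0 at 3 months, with a median of -1.39, and 2 of 4 at 12 months, with a median of -0.027.

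Markers of tissue bordering the hippocampus are given beside the gap. Thalamic and neocortical genes had a median of 1.19 in WT ageing, with list medians of 1.65, 1.58 and 1.85 on the 3 arrays. Those medians were 0.35, 0.012 and 0.69 in 3xTG over WT at 3 months. At 12 months they were -0.099, -1.09 and -0.53. Taken per gene, 4 of 7 were above 0 at each of these ages, with medians of 0.38 and 0.55, so the sign at 12 months depended on how the list was summarised. The list median of choroid plexus genes ran from -2.82 to -0.84 over the arrays of WT ageing, the former from 1 listed gene. It ran from 0.26 to 1.79 at 3 months and from -1.48 to 0.23 at 12 months. Of these genes Ttr, transthyretin, was at -3.57, -3.49 and -3.73 at 12 months (limma adjusted p = 0.551), while 3 of the 6 genes listed there were above 0. The median per gene of choroid plexus at 12 months was -0.078. The part of these lists in the gap was not tested.

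**Figure D3:**
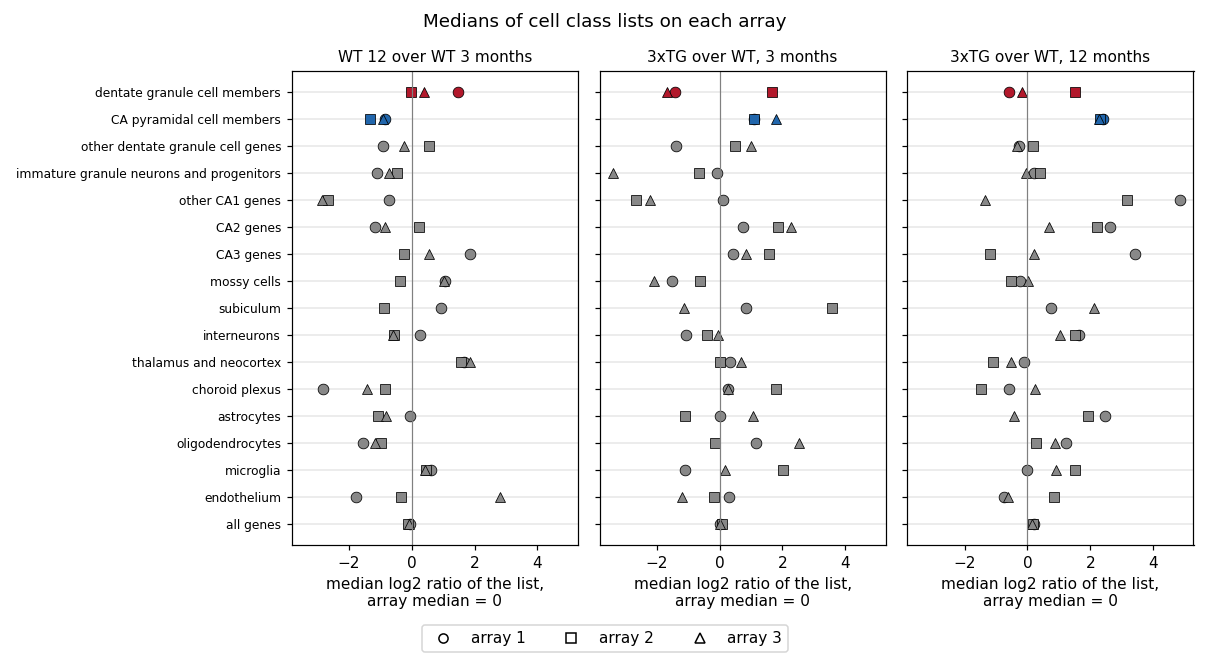
Median log2 ratio of each gene list, relative to the array median (x axis), on each array of the 3 comparisons; point shape gives the replicate number. The median of the CA members lies below 0 on all 3 arrays of WT ageing and above it on the 6 genotype arrays. The median of thalamic and neocortical genes lies between 1.58 and 1.85 in WT ageing.

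The probes most like Neurod1 and Crym, the 2 genes listed on 8 arrays, were found by the Pearson correlation of centred values over shared arrays. For Neurod1, with 173 probes compared, they were Iqsec1 (r = 0.894), Desi2 (r = 0.892) and Pam (r = 0.874). For Crym, with 209 probes compared, they were Sfrs10 (r = 0.98), Rer1 (r = 0.97) and M6pr (r = 0.965). Each rests on 8 arrays that share mice and labelling, and the highest of many correlations is high by selection.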

How the data were processed

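The authors deposited 1 column of log2 ratios between the 2 channels for each array; the base of the logarithm is not stated and was taken as 2 from the range of the values. The scanner, background correction, filter and normalization were left unstated (not given in the sources used here). Without signals, precision is limited by how many arrays there are. The table had 0 value columns that belong to no sample. The platform annotation named 1 gene for 21020 probes and left 8902 unnamed. Of its 16675 symbols RefSeq (GRCm38.p6) held 13905 as they stood and 2728 as synonyms, which were replaced; 42 stayed as annotated.

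The median of the listed values was subtracted from each array. A probe entered a comparison with values on 2 or more of its 3 arrays if at least 1 residual degree of freedom was left. Probes were fitted by generalised least squares with a coefficient per comparison and a dye term. Cy5 labelled the test RNA of 3 arrays and Cy3 that of 6. Arrays that share a mouse were allowed to covary. The mouse variance was set at 1.02 times the array variance, from restricted maximum likelihood over the 142 probes with 9 values. This ratio moved widely when single arrays were left out. It was 0.143 without array 3 at 3 months and 10, the highest value allowed, without array 2 of WT ageing. Variances were moderated in limma 3.58.1 (R 4.3.3), with Benjamini-Hochberg adjustment over all probes tested and a threshold of 0.05. The fit was tested on simulated ratios. A gene's value on an array is the mean of its listed probes, its value in a comparison the mean over arrays, and lists are described by counts and medians. Fitted values are given for member probes listed on all 3 arrays of a comparison and for a few others with the number of arrays. Of the other lists up to 3 genes of smallest p with one sign on all 3 arrays could be named. The members and lists were chosen with earlier results of these data known. Alternatives covered centring, dye, covariance, entry rule, slide number, replicate number, single arrays and the way the gap is taken.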

Additional observations from a re-analysis of the deposited data

How the results depend on the processing

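limma called 0 probes in each comparison and for the age difference of the genotype effect under all 8 other fits and without each array; unadjusted counts over the 8 fits were 426 to 1621 for WT ageing, 384 to 1711 and 428 to 1930 for 3xTG over WT at 3 and 12 months, and 224 to 664 for the age difference. Without single arrays they were 299 to 1118, 333 to 961, 365 to 1438 and 97 to 321, lowest without array 2 of WT ageing for the first, array 3 at 3 months for the second and array 2 at 12 months for the others, against 808, 836, 982 and 248 with all arrays. The number of probes tested changed too, so these counts do not compare directly. The lowest over the 8 fits, with replicate number as a block, were of 2978, 2708, 2670 and 4785 probes. Those without single arrays were of 5175, 4361, 5570 and 3623, against 11183, 10336, 10983 and 6807 in the main fit. The gap in WT ageing was 0.37 with unlisted values at a ratio of 0, 2.37 with means over members, 3.48 with members listed on all 3 arrays alone, -0.10 read as Cy5 over Cy3, 2.27 with a slide number term and 0.28 for the other genes of the classes, a setting chosen after seeing the data, as was leaving out Fibcd1. At 12 months it was -0.34 with unlisted values at 0 and 0.44 read as Cy5 over Cy3. At 3 months it ran from -2.79 to -0.50 over all 11 settings. Gaps from members listed on all 3 arrays could not be had for the genotype comparisons. Leaving out single arrays gave 1.31 to 1.82 in WT ageing, -2.98 to -0.97 at 3 months (-2.98 without array 2 and -0.97 without array 3) and -2.73 to -1.61 at 12 months. With the replicate number as a block the gaps were 1.65, -1.79 and -2.08, unchanged because the design is balanced, and 0 probes were called. Over 142 probes the deviations of same-numbered arrays correlated at -0.08 to 0.24, and the numbers were not taken as pairs. However, 6 of 9 arrays correlated best with their own number, which goes the other way, and pairing was not tested. Crym in WT ageing turned to 0.82 without centring. Without single arrays Tdo2 in WT ageing ran from -1.07 to 1.24 and Neurod1 at 12 months from -0.23 to 0.89; the cause was not tested. The fitted values of Neurod1 and Fibcd1 in WT ageing, Crym at 3 months and C1ql3 at 12 months kept their sign in all fits that estimated them. Of the 8 other fits, 5 estimated Fibcd1 and 6 estimated C1ql3. Fibcd1 had no estimate with a slide number term, with replicate number as a block, or with 2 of 3 arrays needed in every comparison. Few listed values per array and the missing small ratios limit every gap.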

Other observations

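Glial and interneuron genes, which are not markers of either neuron class, also lay on one side in some comparisons, though limma called none of them. Over all genes 48.9% were above 0 in WT ageing, 49.2% in 3xTG over WT at 3 months and 55.3% at 12 months. Oligodendrocyte genes were below 0 in WT at 12 over WT at 3 months in 6 of 6 cases, with a median of -1.13, and the list median was -1.56, -0.98 and -1.16 on the 3 arrays. Before centring the median of those genes was 0.97. In 3xTG over WT at 12 months Mbp, myelin basic protein, was at 3.27, 2.53 and 3.41 (limma adjusted p = 0.551), while 3 of the 5 listed genes of the list were above 0. Astrocyte genes were above 0 in 7 of 9 cases at both ages in 3xTG over WT, with medians of 0.70 at 3 and 2.39 at 12 months. By array the list median at 3 months was 0.007, -1.11 and 1.06, on neither side. Their list median on array 3 at 12 months was -0.43, against 2.47 and 1.94 on arrays 1 and 2. S100b, a calcium-binding protein of astrocytes, was at 1.74, 2.07 and 7.76 at 12 months (limma adjusted p = 0.551).

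Interneuron genes had 9 of 12 above 0 in 3xTG over WT at 12 months, with list medians of 1.64, 1.5 and 1.02, and 3 of 12 at 3 months, with -1.07, -0.39 and -0.064. Htr3a, a serotonin receptor channel of one interneuron class, was at 1.67, 1.53 and 3.59 at 12 months (limma adjusted p = 0.557). Microglial list medians were 0.62, 0.46 and 0.42 on the arrays of WT ageing, from 3 or 4 listed genes each, and the median per gene was 0.13, with 4 of 5 above 0. The list medians ran from -1.11 to 2.03 in 3xTG over WT at 3 months and from -0.012 to 1.5 at 12 months. Endothelial list medians ran from -1.78 to 2.80 in WT ageing, from -1.19 to 0.29 at 3 months and from -0.76 to 0.84 at 12 months. The subiculum list had 3 genes on the array and too few values to describe, with medians from -1.12 to 3.58 on the arrays that listed any.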
